A study of Mus musculus with 185 samples.

Results

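Basement membranes in the heart are built from a small set of collagen, laminin and nidogen chains. Here 10 genes for such chains were followed across single interstitial cells, mostly with fibroblast markers, of uninjured and infarcted mouse hearts. The genes were taken by name from a table of 17171 genes, and all 10 were listed in it. They were the collagen IV chain genes Col4a1, Col4a2 and Col4a5, the genes of collagens XV and XVIII (Col15a1, Col18a1), the laminin chain genes Lama2, Lama4, Lamb1 and Lamc1, and the nidogen gene Nid1. Each was above 5 TPM, a transcript measure adjusted for transcript length and for the total of the cell, which was the minimum used for detection, in at least 1 of the 185 cells.

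A basement membrane is a thin sheet of matrix that surrounds cardiomyocytes, capillaries and smooth muscle. Laminin trimers of an α, a β and a γ chain lie against the cell surface, where integrins and dystroglycan bind them, and collagen IV trimers form a second network that nidogen links to the laminins. Collagens XV and XVIII join basement membranes to the fibrillar matrix around them, and fibroblasts are a known source of many of these chains in muscle.

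The study followed fibroblasts from the uninjured heart into the infarct scar by inducible genetic labelling. Tcf21 MCM/+; R26-eGFP and Postn MCM/+; R26-eGFP mice carried a tamoxifen-inducible Cre (MerCreMer, MCM) knocked into 1 allele of Tcf21, a gene of resident fibroblasts, or of Postn (periostin), a gene that fibroblasts switch on after injury, together with an eGFP reporter at Rosa26. Tamoxifen fixed eGFP in cells in which the driver gene was active, so "traced" below means eGFP-positive. In the paper's infarct tracing, Tcf21 mice received tamoxifen before infarction and Postn mice after it. The schedule of the sequenced cells is not given separately. Traced infarct classes of the lines can thus also differ in tamoxifen exposure. Cells bearing CD31 (endothelial) or CD45 (myeloid) were removed by sorting, and single cells were captured on Fluidigm C1 plates, amplified with SMARTer chemistry and sequenced after Nextera tagmentation.

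All mice were on a C57BL/6 background and about 5 months old. Activated cells came from the infarct region a week after myocardial infarction made by permanent ligation of the left coronary artery. The 152 infarct cells formed 5 classes. These were 44 activated Tcf21-traced cells, 27 activated Postn-traced cells, 24 activated Postn-negative CD31-CD45- cells and 29 untraced CD31-CD45- cells from the scar. The other class held 28 Postn-positive CD31-CD45- cells whose label names no trace, called untraced Postn-positive below. The 33 resident cells formed 4 classes. These were 17 Tcf21-traced cells and 12 Postn-negative CD31-CD45- cells, with 3 Postn-positive Tcf21-traced cells and 1 Postn-positive CD31-CD45- cell set apart. The resident Tcf21-traced cells came from uninjured hearts. The resident CD31-CD45- class is described both as uninjured and as taken from the remote region, and which of these holds for each cell is not given. Cells were pooled from 3 mice in each group.

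Captures and classes were largely nested. All 33 resident cells shared 1 capture, the activated Postn-traced and Postn-negative cells shared another, and the activated Tcf21-traced cells and the scar cells each had their own. Untraced Postn-positive cells were spread over the infarct captures, with 19 beside the Tcf21-traced cells, 6 beside the Postn-traced cells and 3 beside the scar cells. Their labels do not name the mouse line, so only the capture points to the trace that each cell lacked. Pooled values of this class mix these captures and tracers. In the comparisons of infarct with resident cells, capture and class cannot be told apart.

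The mouse of a cell is not named, so each class counted as 1 sample without replicates and no test was run. Values are given as the mean ± SD between cells on the log2 (TPM+1) scale, and the SD describes cells and not animals. A difference between class means was called when it exceeded 1 log2 unit. The number of genes above 5 TPM in a cell ran from 1862 to 2887 (median 2264) in resident Tcf21-traced cells and from 1815 to 5023 (median 3134) in activated Tcf21-traced cells. The medians were 2091.5 in resident CD31-CD45- cells, 3643 in activated Postn-traced cells, 3280.5 in untraced Postn-positive cells, 2342 in activated Postn-negative cells and 3177 in scar cells. Each infarct class thus had a higher median than both larger resident classes, but activated Postn-negative cells lay only slightly above resident Tcf21-traced cells. In the scar class 5 cells stood apart with only 141 to 264. Read counts per cell were not analysed here, so intervals for shares of cells (exact Clopper-Pearson, 95%) cover the counting of cells only. Where 0 cells passed, the limit given is the share that 3 cells of the total would make.

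The class labels do not name a cell type, so fibroblast identity was checked against markers. At least 3 of 6 fibroblast markers (Col1a1, Col3a1, Dcn, Pdgfra, Tcf21, Dpt) were above 5 TPM in 180 of 185 cells, and Dcn was the most abundant of them in every class. No cell had 3 of the 5 listed endothelial markers (Pecam1, Kdr, Tek, Tie1, Emcn), of which Tek had the highest mean in each class that held any. At least 3 of 6 markers were seen for pericytes in 2 cells, Schwann cells in 1, cardiomyocytes in 2, epicardium in 1 and myeloid cells in 1. At least 3 of 6 smooth muscle markers, which myofibroblasts share, were seen in 22 cells, all from the infarct. The myeloid-positive cell was 1 of the 12 resident CD31-CD45- cells. Its summed level of 6 myeloid markers was 10135 TPM, and 7 of the 10 basement membrane genes were listed at 0 in it, with Col4a1 at 0.84, Lama2 at 1.05 and Nid1 at 0.67. Called genes in the 3 comparisons that use this class are therefore also given without this cell.

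**Figure D1:**
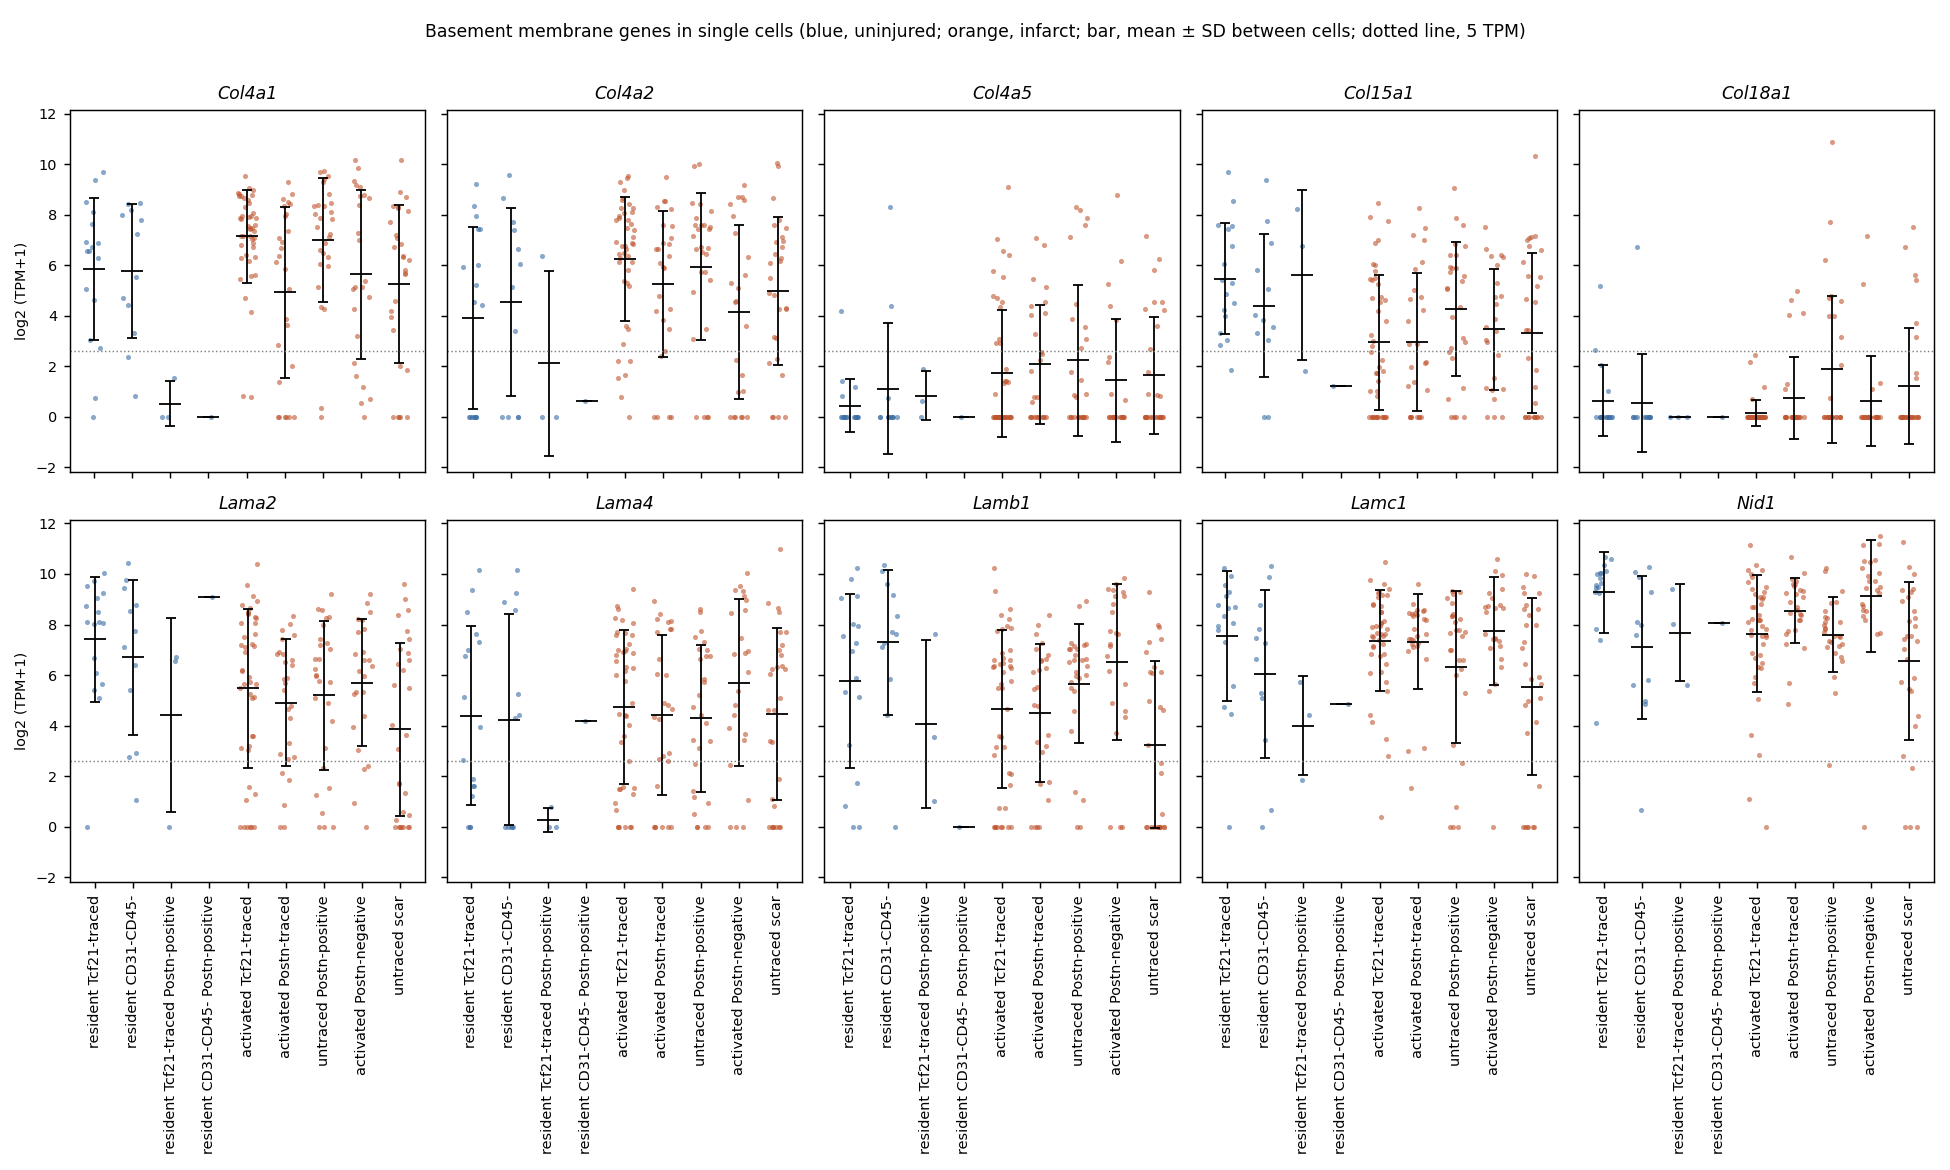
Level of each of the 10 genes (y axis, log2 (TPM+1)) in every cell of the 9 classes (x axis), with bars for the mean ± SD between cells and a dotted line at 5 TPM. Nid1, Lamc1 and Col4a1 were above the line in most cells of the larger classes, and Col18a1 lay at 0 in most.

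Across all cells, Nid1 was the most widely detected gene (176 of 185 cells above 5 TPM), followed by Lamc1 (166), Col4a1 (152), Lama2 (144), Col4a2 (139), Lamb1 (136), Lama4 (126) and Col15a1 (112). Col4a5 (49) and Col18a1 (24) were found in few cells. The 10 genes summed to a median of 2366 TPM a cell in resident Tcf21-traced cells, against 1251 TPM in activated Tcf21-traced cells and 1078 TPM in activated Postn-traced cells. The sum was 1769 TPM in resident CD31-CD45- cells, 2187 TPM in activated Postn-negative cells, 1427 TPM in untraced Postn-positive cells and 1133 TPM in scar cells. Nid1 held the largest share of the summed TPM, a scale adjusted for transcript length, in each of these classes except resident CD31-CD45- cells. That share was 34.9% in resident Tcf21-traced cells and 38.3% in activated Postn-traced cells. In resident CD31-CD45- cells Lamb1 led with 19.4%.

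Col4a1 and Col4a2 encode the α1 and α2 chains, which assemble into the common collagen IV trimer of 2 α1 chains and 1 α2 chain. The genes lie head to head on mouse chromosome 8 (GRCm38), Col4a1 at chr8:11198423-11312889 on the minus strand and Col4a2 at chr8:11312805-11449287 on the plus strand. Their RefSeq promoter windows, from 250 bases before to 50 bases after the start, were chr8:11312777-11313076 and chr8:11312555-11312854 and overlapped by 78 bases. The stretch below, plus strand, chr8:11312761-11312790, is shown because the genes start within the same short region. It lies before the start of Col4a2 and inside the first exon of Col4a1 in the GENCODE vM21 annotation. The capitals mark a CCAAT motif.
Col4a2: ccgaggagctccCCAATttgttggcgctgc

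Col4a1 lay between 0 and 9.68 in the 17 resident Tcf21-traced cells (median 6.56) and between 0.79 and 9.52 in the 44 activated Tcf21-traced cells (median 7.48). The ranges overlapped almost fully, with 42 of 44 activated and 15 of 17 resident cells above 5 TPM. The mean rose from 5.85 ± 2.81 to 7.14 ± 1.83, a difference of 1.29 that was smaller than both SDs. In activated Postn-traced cells Col4a1 instead averaged 4.93 ± 3.39, the lowest of the 7 larger classes, with 19 of 27 cells above 5 TPM. The order of class means ran from activated Tcf21-traced and untraced Postn-positive cells (7.00 ± 2.45) through resident Tcf21-traced, resident CD31-CD45-, activated Postn-negative and scar cells to Postn-traced cells. The 19 untraced Postn-positive cells in the capture of the activated Tcf21-traced cells averaged 7.77 ± 1.33. The whole range of 2.21 log2 units was smaller than the SD within 6 of these 7 classes. For none of the 10 genes did classes next to each other in the order of means differ by more than the smaller of their SDs.

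Col4a2 showed the larger shift. Resident Tcf21-traced cells held it at 0 to 9.19 (median 4.55), with 10 of 17 cells above 5 TPM, and activated Tcf21-traced cells at 0 to 9.52 (median 6.81), with 38 of 44. The resident class was split between cells at 0 and cells at levels found in the infarct, so the ranges overlapped. The mean rose from 3.91 ± 3.59 to 6.25 ± 2.46, a difference of 2.34. Activated Postn-traced cells averaged 5.26 ± 2.89 (22 of 27 cells above 5 TPM), which was 1.35 above the resident Tcf21-traced class.

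Because both chains are needed for the trimer, cells with Col4a1 and Col4a2 above 5 TPM together were counted. They made up 9 of 17 resident Tcf21-traced cells (52.9%, interval 27.8 to 77%) and 37 of 44 activated Tcf21-traced cells (84.1%, 69.9 to 93.4%). Untraced Postn-positive cells stood at 24 of 28 (85.7%, 67.3 to 96%), and activated Postn-traced cells at 18 of 27 (66.7%, 46 to 83.5%). Of those 28 cells, 19 shared the capture of the activated Tcf21-traced cells, and all 19 held both genes. The high shares of these classes thus cannot be told apart from that capture. At this minimum activated Postn-negative cells had the lowest share of the larger classes, 10 of 24 (41.7%, 22.1 to 63.4%). That share became 75% when any value over 0 counted, and it was then not the lowest. Resident Tcf21-traced cells lay below it, since 7 of those 17 cells had Col4a2 listed at 0. In 29 of all 185 cells Col4a1 alone passed the minimum and in 16 Col4a2 alone. Of the 17 resident Tcf21-traced cells, 6 held Col4a1 without Col4a2 and 1 held Col4a2 without Col4a1.

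Between cells of a capture, Col4a1 and Col4a2 gave the highest Spearman correlation of all 45 gene pairs in both larger infarct captures, with rho of 0.56 over 63 cells (Tcf21-traced capture) and 0.50 over 57 cells (Postn-traced capture). It was 0.35 over the 33 resident cells and 0.04 over the 32 cells of the scar capture. Within single classes rho was 0.59 in activated Tcf21-traced cells (n = 44), 0.59 in Postn-traced cells (n = 27), 0.57 in untraced Postn-positive cells (n = 28) and 0.37 in activated Postn-negative cells (n = 24). It was 0.47 in resident CD31-CD45- cells (n = 12), 0.18 in resident Tcf21-traced cells (n = 17) and -0.04 in scar cells (n = 29). The relation was thus weakest in the resident Tcf21-traced and scar classes and was not limited to traced cells. Across the 4 captures 180 such relations were computed, with no p-values, since cells share a capture and differ in the number of genes detected. The median of the 45 pairs was 0.20, 0.18, 0.11 and 0.13 in the resident, Postn-traced, Tcf21-traced and scar captures. The correlation of a gene with the number of genes detected ran from -0.36 (Lamc1) to 0.29 (Col18a1) in the Tcf21-traced capture and from -0.19 (Lamb1) to 0.29 (Col4a2) in the Postn-traced capture. It ran from 0.07 (Lama2) to 0.29 (Col4a1) in the resident capture and from 0.05 (Col4a2) to 0.41 (Lama4) in the scar capture.

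**Figure D2:**
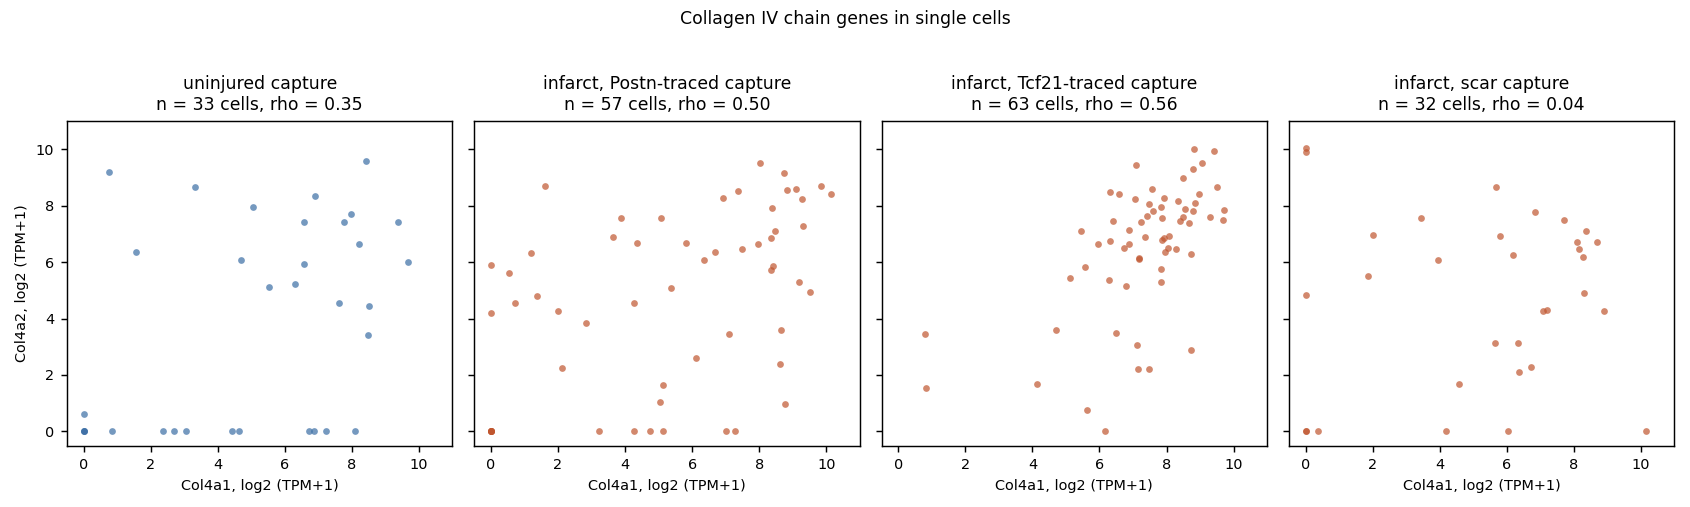
Col4a1 (x axis) against Col4a2 (y axis), both in log2 (TPM+1), in each cell of the 4 captures, with Spearman's rho. In the Tcf21-traced infarct capture most of the 63 cells lay in the upper right (rho 0.56), while cells with only 1 of the chains lined the axes in the resident capture (rho 0.35).

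Col4a5, the α5 chain gene of a rarer collagen IV trimer, was at 0 in most cells of both the resident and the activated Tcf21-traced class. Its highest value was 4.19 in resident Tcf21-traced cells, where 1 of 17 cells passed 5 TPM, and 9.11 in activated Tcf21-traced cells, where 13 of 44 did. In activated Postn-traced cells 9 of 27 passed, with a highest value of 7.09. The class means differed by 1.28 and 1.63 from a resident mean of 0.45 ± 1.07. On medians over cells the difference of 1.28 became 0, since both medians were 0.

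Col15a1 encodes collagen XV, which lies at the outer face of basement membranes of muscle and capillaries. It ran from 1.84 to 9.67 in resident Tcf21-traced cells (median 5.31), with 16 of 17 cells above 5 TPM. In activated Tcf21-traced cells it ran from 0 to 8.46 (median 2.41), with 21 of 44, and in activated Postn-traced cells from 0 to 8.25 (median 2.16), with 13 of 27. The resident cells were nearly all positive and about as many infarct cells were negative as positive, and the ranges overlapped up to the highest infarct cells. The mean of 5.46 ± 2.20 fell to 2.94 ± 2.67 and 2.96 ± 2.74, differences of -2.52 and -2.50 that exceeded the resident SD. Resident Tcf21-traced and resident CD31-CD45- cells (4.39 ± 2.82) had the highest means of the 7 larger classes, and untraced Postn-positive cells (4.26 ± 2.66) came next.

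Col18a1 encodes collagen XVIII, the source of the fragment endostatin. No activated Tcf21-traced cell passed 5 TPM (0 of 44, which allows a share of up to 6.82%), although 4 cells had lower values, up to 2.46. In untraced Postn-positive cells 9 of 28 passed (32.1%, interval 15.9 to 52.4%), and within the capture that both classes shared the count was 6 of 19. The highest single value, 10.89, was in an untraced Postn-positive cell that also had at least 3 Schwann cell markers and came from the Postn-traced capture, so it had no part in the difference of -1.56 within the Tcf21-traced capture. Resident classes had 2 of 17 and 1 of 12 cells above 5 TPM.

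Lama2 encodes the laminin α2 chain, the main α chain around muscle fibres. Resident Tcf21-traced cells held it at 0 to 10.03 (median 8.08), activated Tcf21-traced cells at 0 to 10.41 (median 6.05) and activated Postn-traced cells at 0 to 8.33 (median 5.68). The ranges overlapped, but 1 of 17 resident cells was below 5 TPM against 9 of 44 and 5 of 27 activated cells. From a resident mean of 7.41 ± 2.47, the activated Tcf21-traced class differed by -1.93 (5.48 ± 3.14) and the Postn-traced class by -2.51 (4.90 ± 2.51). The latter exceeded the SD of both classes, as only 1 other difference of the 70 computed for these genes did. Under the alternatives the difference for the activated Tcf21-traced class came as near to 0 as -0.96. Scar cells had the lowest mean, 3.85 ± 3.43, with 16 of 29 cells above 5 TPM.

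Lama4, the laminin α4 chain gene best known from capillaries, had similar means in the resident and activated Tcf21-traced classes, 4.40 ± 3.53 and 4.74 ± 3.04, with 10 of 17 against 31 of 44 cells above 5 TPM. The medians were further apart, 3.96 and 5.88, a difference of 1.93, while on linear means the difference was -0.66. All 10 resident Tcf21-traced cells with Lama4 also held Lama2, whereas 25 of the 31 activated ones did. Activated Postn-negative cells had the highest mean (5.70 ± 3.30), which was 1.46 above the 4.24 ± 4.17 of resident CD31-CD45- cells and within both SDs.

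Lamb1 encodes the β1 chain shared by many laminins. It was highest in resident CD31-CD45- cells, at 0 to 10.36 (median 7.66), with 11 of 12 cells above 5 TPM, and lowest in scar cells, at 0 to 9.29 (median 2.52), with 14 of 29. The 1 resident cell at 0 was the myeloid-positive cell, and 12 scar cells were listed at 0, so the classes overlapped mainly at the top of the range. The means of 7.30 ± 2.88 and 3.25 ± 3.30 differed by -4.05, more than either SD. With the cells that held few genes left out the difference was -3.20, and with the cells holding markers of other types left out it was -4.82. Within the Postn-traced capture, Postn-traced cells (4.51 ± 2.74) lay 2.01 below Postn-negative cells (6.52 ± 3.09), a difference of -2.01 when written as traced minus negative.

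Lamc1 encodes the γ1 chain, present in most laminins. Its means were close, at 7.55 ± 2.57, 7.37 ± 1.98 and 7.33 ± 1.87 in the resident Tcf21-traced class and the Tcf21-traced and Postn-traced classes of the infarct, where 16 of 17, 43 of 44 and 26 of 27 cells were above 5 TPM. Scar cells (5.55 ± 3.50, 22 of 29), resident CD31-CD45- cells (6.06 ± 3.32, 10 of 12) and untraced Postn-positive cells (6.32 ± 3.01, 23 of 28) had lower means and wider spreads.

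A laminin trimer needs an α, a β and a γ chain, so cells holding Lama2 or Lama4 together with Lamb1, taken as the β chain, and Lamc1 above 5 TPM were counted. Such sets were found in 13 of 17 resident Tcf21-traced cells (76.5%, interval 50.1 to 93.2%) and 29 of 44 activated Tcf21-traced cells (65.9%, 50.1 to 79.5%). Activated Postn-negative cells had them in 20 of 24 (83.3%, 62.6 to 95.3%) and scar cells in 11 of 29 (37.9%, 20.7 to 57.7%). With the β2 chain gene Lamb2 counted beside Lamb1, the counts were 14 of 17, 34 of 44, 21 of 24 and 15 of 29 (51.7%, 32.5 to 70.6%), with scar cells still lowest of the larger classes. These classes came from different captures. Of the 29 scar cells, 5 had fewer than 300 genes detected, and the part of this in the result was not tested. A laminin set together with Nid1, Col4a1 and Col4a2 was held by 9 of 17 resident Tcf21-traced cells, 26 of 44 activated Tcf21-traced cells, 15 of 27 Postn-traced cells, 9 of 24 Postn-negative cells and 8 of 29 scar cells.

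**Figure D3:**
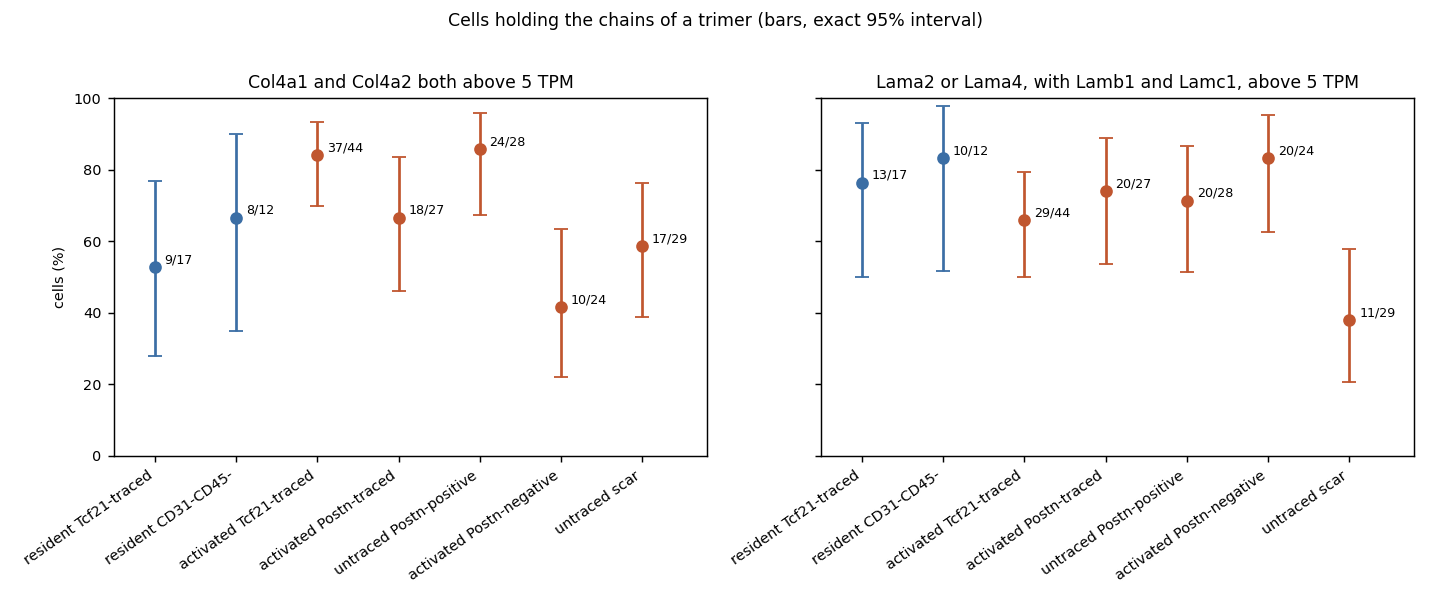
Share of cells (y axis, percent) in the 7 larger classes that held both collagen IV chain genes (left) or Lama2 or Lama4 with Lamb1 and Lamc1 (right) above 5 TPM, with exact 95% intervals and the counts. The collagen IV share was highest in untraced Postn-positive cells (24 of 28) and activated Tcf21-traced cells (37 of 44). Of those 28 cells, 19 shared the capture of the activated Tcf21-traced cells, and all 19 held both genes. The laminin share was lowest in scar cells (11 of 29).

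Nid1 encodes nidogen 1, the linker between laminin and collagen IV. In resident Tcf21-traced cells it ran from 4.09 to 10.68 (median 9.63) and was above 5 TPM in all 17 cells. In activated Tcf21-traced cells it ran from 0 to 11.13 (median 8.14; 42 of 44 cells), and in activated Postn-traced cells from 4.84 to 10.67 (median 8.69; 27 of 27). The resident cells clustered high, and the activated Tcf21-traced class had a tail of low cells and also reached higher values than the resident class. The mean of 9.27 ± 1.59 fell by 1.63 in the activated Tcf21-traced class (7.64 ± 2.32) and by 0.72 in the Postn-traced class (8.55 ± 1.30). Activated Postn-negative cells, at 9.12 ± 2.22, lay beside the resident Tcf21-traced class and 2.03 above resident CD31-CD45- cells (7.09 ± 2.83).

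The Nid1 promoter is shown because Nid1 and Lama2 were correlated within both traced infarct classes, as given below. Any link between its motifs and that correlation was not tested. The stretch is chr13:13437352-13437550 (GRCm38), plus strand, and ends where the first exon of Nid1 begins in the GENCODE vM21 annotation. Capitals mark the motifs CCAAT and GGGCGG on either strand (ATTGG is CCAAT read from the other strand).
Nid1: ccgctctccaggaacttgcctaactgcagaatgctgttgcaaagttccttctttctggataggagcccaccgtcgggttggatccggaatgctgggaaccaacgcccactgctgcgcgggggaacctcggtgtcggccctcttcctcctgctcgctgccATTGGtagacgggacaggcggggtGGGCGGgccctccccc

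The Nid1 stretch held 1 of each motif and was 63.8% G and C. The Lama2 window, not shown, held 1 GGGCGG and 0 CCAAT. Among the 9 windows of the 8 genes with one (Col4a1, Col4a2, Col4a5, Col15a1, Col18a1, Lama2, Lamb1 and Nid1), CCAAT was found on either strand in 6, GGGCGG in 7 and TATAAA in 0. These letters occurred in 37.4%, 35.7% and 13.6% of all 32851 windows of the same length.

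Lama2 and Nid1 were correlated with rho of 0.53 in the Tcf21-traced capture, where they were the second of 45 pairs, and with 0.38, 0.29 and 0.07 in the resident, Postn-traced and scar captures. By class rho was 0.57 in activated Tcf21-traced and 0.59 in activated Postn-traced cells, 0.45 in resident CD31-CD45-, 0.37 in untraced Postn-positive and 0.31 in resident Tcf21-traced cells. It was 0.14 in activated Postn-negative cells and 0.00 in scar cells.

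The members were then counted for each comparison and set beside all genes. Of the 17171 genes, 15733 were above 5 TPM in at least 1 cell and 5039 in at least 20% of cells, and both are given as background because 9 of the 10 genes passed the stricter filter and Col18a1 did not. All 10 passed the wider filter. Both comparisons of a traced infarct class with resident Tcf21-traced cells share those 17 cells, and the comparisons of Postn-negative, scar and resident Tcf21-traced cells with resident CD31-CD45- cells share the same 12, so they are not independent of each other.

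The first comparison asks how cells of the Tcf21 lineage differ before and after injury. In activated minus resident Tcf21-traced cells, 3 of 10 genes were called higher (Col4a1, Col4a2, Col4a5) and 4 lower (Col15a1, Lama2, Lamb1, Nid1). Over all genes 16.9% were higher and 2.65% lower, and among the widely detected ones 44.1% and 5.54%. The median difference was -0.34 for the 10 genes and 0.84 for the widely detected genes (0.16 over all). The count of higher members thus lay near the background, while 4 of 10 lower stood beside a background of few lower genes on the log2 scale. On linear means 2729 of the 15733 genes were lower. Centring each cell on its median detected gene moved the median of the widely detected genes from 0.84 to 1.05, and the 3 collagen IV genes stayed above 1 (1.68, 2.63 and 1.43) while Lamb1 came to -0.75. Under other alternatives Col4a1 came down to 0.32 (linear means), Col4a2 to 0.82 and Col4a5 to 0, and Lama2 came to -0.96. Lamb1 also came within 1 unit when any of 7 single cells was left out (as far as -0.83), and Col4a1 for 2 (0.93). Of the 6 fibroblast markers, Col1a1 (1.93) and Col3a1 (1.60) were higher and Dcn (-1.15), Pdgfra (-2.95) and Dpt (-1.39) lower. The smooth muscle markers Acta2 (2.59) and Tagln (3.62) were higher and Tek (-1.22) lower, and the part of these markers in the result was not tested.

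Activated Postn-traced minus resident Tcf21-traced cells sets the labelled myofibroblasts against resident fibroblasts. Here 2 genes were higher (Col4a2, Col4a5) and 3 lower (Col15a1, Lama2, Lamb1). The background was 20% higher and 2.51% lower over all genes, and 47.3% and 5.42% among widely detected ones. For the 10 genes the median difference was -0.47, against 0.93 for the widely detected genes, which became 1.16 after centring. Col4a1, at -0.92, went the other way from Col4a2, at 1.35. Of the fibroblast markers, Col1a1 (3.32) and Col3a1 (3.21) were higher and Dcn (-1.02) and Pdgfra (-1.87) lower, with Acta2 at 3.09, Tagln at 4.15 and Tek at -1.48. Leaving out 1 resident cell brought Lamb1 from -1.26 to -0.98. Leaving out any of 14 single cells took Col4a1 past -1 (as far as -1.28), and 1 cell took Nid1 to -1.04.

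Activated Postn-negative minus resident CD31-CD45- cells compares Postn-negative CD31-CD45- cells of the infarct with the resident cells of that description. The infarct class was captured beside Postn-traced cells and the resident class beside Tcf21-traced cells. Injury, capture and the share of Tcf21-lineage cells therefore cannot be told apart here. Lama4 (1.46), Lamc1 (1.69) and Nid1 (2.03) were called higher and Lama2 (-1.001) lower, so 3 and 1 of 10, beside 10.3% higher and 5.2% lower over all genes and 26.3% and 10.3% among widely detected ones. The median difference was -0.04 for the 10 genes and 0.35 for widely detected genes. All 4 called differences were within both SDs. On linear means Lama4 came to 0.07 and Lamc1 to 0.46. Without the myeloid-positive resident cell 3 genes were higher (Lama4 1.07, Lamc1 1.14, Nid1 1.45) and 3 lower (Col15a1 -1.32, Lama2 -1.51, Lamb1 -1.44). When the 3 cells with markers of other types in these classes were left out, among them the myeloid-positive resident cell, 2 genes were higher (Lamc1 1.30, Nid1 1.51) and 3 lower (Col15a1 -1.17, Lama2 -1.64, Lamb1 -1.48). Leaving out single cells gave 0 to 3 lower genes, and Lama2 ranged from -1.51 to -0.66. Among the markers, Tcf21 (3.35), Dpt (1.51) and Smtn (1.42) were higher and Lyz2 (-1.03) lower, and their part in the result was not tested.

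**Figure D4:**
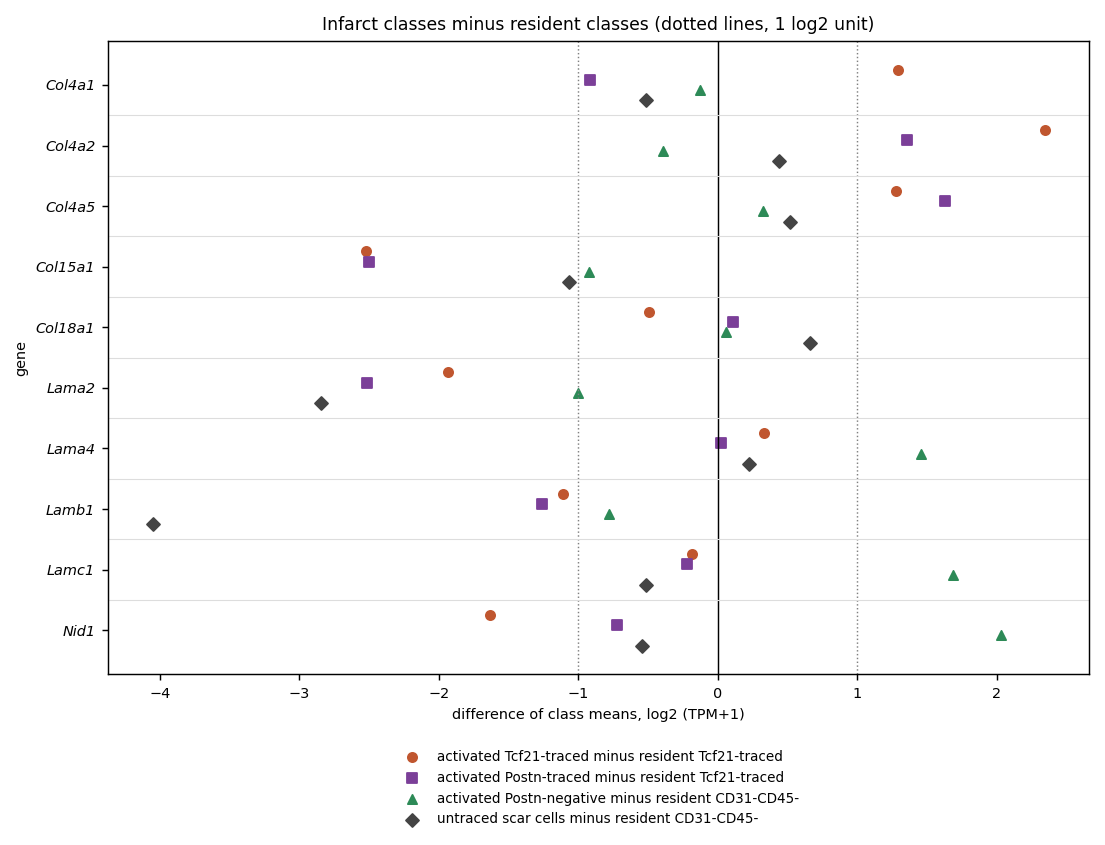
Difference of class means (x axis, log2 (TPM+1) units) for each gene (y axis) in the 4 comparisons of infarct with resident cells, with dotted lines at 1 unit. Col15a1 and Lama2 lay left of 0 in all 4, and Col4a2 lay right of 1 in both traced classes (2.34 and 1.35).

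Activated Postn-traced and Postn-negative cells shared a capture, so this comparison of labelled with unlabelled infarct cells is free of a capture difference. The classes still differed in the median number of genes detected, 3643 against 2342. Col4a2 was higher (1.11) and Lama4 (-1.27) and Lamb1 (-2.01) lower, 1 and 2 of 10, beside 16.7% and 2.35% of all genes and 39.6% and 5.4% of widely detected genes. For the 10 genes the median difference was -0.54, against 0.73 for widely detected genes, or 0.98 after centring. The Col4a2 call changed with any of 13 single cells left out (as far as 0.93), which gave 0 genes higher, and was 0.97 without the 2 Postn-negative cells that held markers of other types and 0.11 on linear means. Centring left Lamb1 at -1.56 and brought Lama4 to -0.81. Lama2 passed -1 with either of 2 single cells left out (as far as -1.05). Of the fibroblast markers, Col1a1 (3.9) and Col3a1 (3.55) were higher in the traced cells and Tcf21 (-2.68) lower, with Acta2 at 3.29 and Tagln at 4.17.

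Within the Tcf21-traced capture, 44 activated Tcf21-traced cells were compared with 19 untraced Postn-positive cells. Lamc1 (1.09) was higher in the traced cells, and Col4a5 (-1.37), Col15a1 (-1.60), Col18a1 (-1.56) and Lamb1 (-1.09) were lower. This was 1 and 4 of 10, beside 3.34% higher and 5.05% lower over all genes and 8.89% and 10.7% among widely detected ones. Median differences were -0.77 for the 10 genes and -0.03 for widely detected genes, or -0.16 after centring. Of the fibroblast markers, Col1a1 (-1.23) was lower in the traced cells and Pdgfra (1.497) and Tcf21 (1.62) were higher, with Acta2 at -1.20 and Tagln at -2.12. All 19 untraced Postn-positive cells of this capture were above 5 TPM for both Col4a1 (7.77 ± 1.33) and Col4a2 (7.16 ± 1.78), as 37 of the 44 traced cells were. Lamc1 came within 1 unit (as far as 0.74) when any of 4 single cells was left out, which gave 0 genes higher, and Lamb1 (-0.92) for 11, while Col4a2 passed -1 for 2 (-1.13). On linear means Lamb1 went the other way (0.29), and on medians Col18a1 was at 0 and Lamc1 at 0.11. Col4a5 also came within 1 unit under the alternatives (-0.93).

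The resident classes shared a capture. In resident Tcf21-traced minus resident CD31-CD45- cells, Col15a1 (1.07), Lamc1 (1.49) and Nid1 (2.18) were higher and Lamb1 (-1.53) lower, 3 and 1 of 10, beside 8.65% and 6.55% of all genes and 21.1% and 13.8% of widely detected genes. Median differences were 0.12 for the 10 genes and 0.18 for widely detected genes. Without the myeloid-positive cell only Nid1 was higher (1.60), with Lamc1 at 0.94 and Col15a1 at 0.67, and Col4a2 (-1.05) and Lamb1 (-2.19) were lower. Thus 1 cell of 12 changed the counts from 3 and 1 to 1 and 2. Calls also changed with other cells, as any of 11 single cells left out ended the Col15a1 call. Any of 4 took Col4a2 past -1, and any of 2 took Lama2 past 1 (as far as 1.17). On linear means Lamc1 was at 0.46, Col15a1 at 0.36 and Lamb1 at -0.68, while Col4a5 (-3.68) and Col18a1 (-1.42) passed -1. With other single cells left out the number of higher genes reached 4. Among the markers, Pdgfra (1.85), Dpt (1.47) and Acta2 (1.08) were higher and Lyz2 (-1.03) lower, and their part in the result was not tested.

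The scar class was compared with resident CD31-CD45- cells as the untraced cells of scar and uninjured or remote tissue. No gene was higher and 3 were lower (Col15a1 -1.07, Lama2 -2.85, Lamb1 -4.05), beside 11.1% higher and 6.57% lower over all genes and 27.1% and 15% among widely detected ones. The median difference was -0.51 for the 10 genes and 0.35 for widely detected genes, or 0.51 after centring. Without 6 scar cells that held under 50% of the median number of genes of their capture, Lama2 (-2.33) and Lamb1 (-3.20) remained below -1 and Col15a1 came to -0.65. That step moved the widely detected genes to a median of 0.83, and the share of higher genes among all called genes from 62.9% to 82.3%. Without the myeloid-positive resident cell 5 genes were lower (Col15a1 -1.47, Lama2 -3.36, Lamb1 -4.72, Lamc1 -1.06, Nid1 -1.12) and 0 higher. With all cells holding markers of other types left out, 5 genes were lower (Col4a1 -1.05, Col15a1 -1.35, Lama2 -3.24, Lamb1 -4.82, Nid1 -1.16). Single cells left out gave 2 to 5 lower genes and 0 to 1 higher. Of the fibroblast markers, Col1a1 (1.38) and Col3a1 (1.31) were higher in scar cells and Pdgfra (-2.50), Tcf21 (-1.73) and Dpt (-1.21) lower, with Acta2 at 1.72 and Tagln at 2.40. The epicardial marker Wt1 was higher (1.70, 6 of 29 scar cells above 5 TPM against 0 of 12), and the part of these markers in the result was not tested.

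Seen by role, the collagen IV genes Col4a2 and Col4a5 were called higher in both traced infarct classes than in resident Tcf21-traced cells, Col15a1, Lama2 and Lamb1 were called lower in both, and Lamc1, Lama4 and Col18a1 were called in neither. Of these 10 calls only those of Col15a1 in both classes and of Lama2 in the Postn-traced class stayed over 1 unit under every alternative. Col4a2 came down to 0.82 in the Tcf21-traced and 0.32 in the Postn-traced class, and Col4a5 to 0 and 0.78. Nid1 was called lower only in the Tcf21-traced class, and whether the 2 infarct classes differed in this was not tested.

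Other basement membrane genes were taken from a list of 19, of which 17 were in the table (all but Lama3 and Lamc3). Lama1 was above 5 TPM in 0 of 185 cells (which allows up to 1.62%), Lama5 and Tinagl1 in 1 each, Lamb3 in 2 and Ntn4 in 7, whereas Sparc was found in all 185 cells, Fbln2 in 170, Hspg2 in 139, Fbln1 in 138 and Smoc2 in 137. In activated minus resident Tcf21-traced cells 4 of 17 were higher (Lamb2 1.73, Pxdn 2.13, Sparc 1.76, Fbln2 2.78) and 5 lower (Col4a3 -1.69, Col4a4 -2.76, Nid2 -1.29, Fbln1 -1.18, Smoc2 -3.46). In Postn-traced minus resident Tcf21-traced cells the same 4 were higher, with Pxdn at 4 and Sparc at 2.43, and the same 5 were lower, with Smoc2 at -6.23. The median of the 17 was 0 in both. Beside these counts stand 16.9% higher and 2.65% lower of all genes (44.1% and 5.54% of widely detected genes) for the Tcf21-traced class, and 20% and 2.51% (47.3% and 5.42%) for the Postn-traced class.

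Sparc encodes a collagen-binding matrix protein. It ran from 9.38 to 12.69 (median 11.18) in resident Tcf21-traced cells and from 12.27 to 14.25 (median 13.57) in activated Postn-traced cells. Only the top of the resident range reached the lowest Postn-traced cells. Smoc2, a secreted calcium-binding protein of the same family, ran from 3.43 to 12.93 (median 11.01) in resident Tcf21-traced cells, all 17 above 5 TPM, and from 0 to 10.15 (median 4.58) in Postn-traced cells, 14 of 27 above. Pxdn, the peroxidase that cross-links collagen IV, passed 5 TPM in 3 of 17 resident Tcf21-traced cells, 21 of 44 activated Tcf21-traced cells and 21 of 27 Postn-traced cells. Of the α3 to α6 chain genes, Col4a4 fell from 8 of 17 cells to 3 of 44 and 1 of 27, while Col4a5 rose as given above.

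Lamb2 encodes the laminin β2 chain, an alternative to Lamb1, and the 2 went in opposite directions. Lamb2 passed 5 TPM in 3 of 17 resident and 25 of 44 activated Tcf21-traced cells, and in 1 of 12 resident CD31-CD45- and 11 of 29 scar cells, where the means differed by 2.43 against -4.05 for Lamb1. Lamb2 was still the lower of the pair in mean level on the TPM-based scale, at 2.70 ± 3.03 in scar cells beside 3.25 ± 3.30 for Lamb1. Nid2, the second nidogen gene, passed 5 TPM in 48 of 185 cells, against 176 for Nid1, and was called lower in 4 comparisons with residents (-1.29, -1.29, -1.22 and -1.12).

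In the remaining comparisons, Postn-negative minus resident CD31-CD45- cells had 3 of 17 other genes higher and 4 lower, with Sparc at 1.29 and Smoc2 at -2.31, beside 10.3% and 5.2% of all genes. Postn-traced minus Postn-negative cells had 2 higher (Pxdn 3.30, Sparc 1.79) and 2 lower (Col4a3 -2.42, Smoc2 -3.66), beside 16.7% and 2.35%. Tcf21-traced minus untraced Postn-positive cells had 1 higher (Smoc2 1.94) and 0 lower, beside 3.34% and 5.05%, and the resident comparison 1 higher (Lamb2 1.04) and 1 lower (Col4a3 -1.18), beside 8.65% and 6.55%. Scar minus resident CD31-CD45- cells had 3 higher (Lamb2 2.43, Agrn 1.07, Sparc 2.77) and 4 lower, with Smoc2 at -6.67, beside 11.1% and 6.57%. Among widely detected genes these backgrounds were higher, as given above for each comparison. Without the myeloid-positive cell, Postn-negative cells had 1 higher (Lamb2 1.77), with Sparc at 0.67 and Fbln2 at 0.87, and 5 lower, Col4a3 (-1.36) among them. The resident comparison then had 1 higher and 5 lower (Col4a3 -1.55, Agrn -1.13, Pxdn -1.10, Fbln1 -1.24, Fbln2 -1.03), and scar cells 2 higher, with Agrn at 0.93, and 5 lower, with Fbln1 at -1.49.

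**Figure D5:**
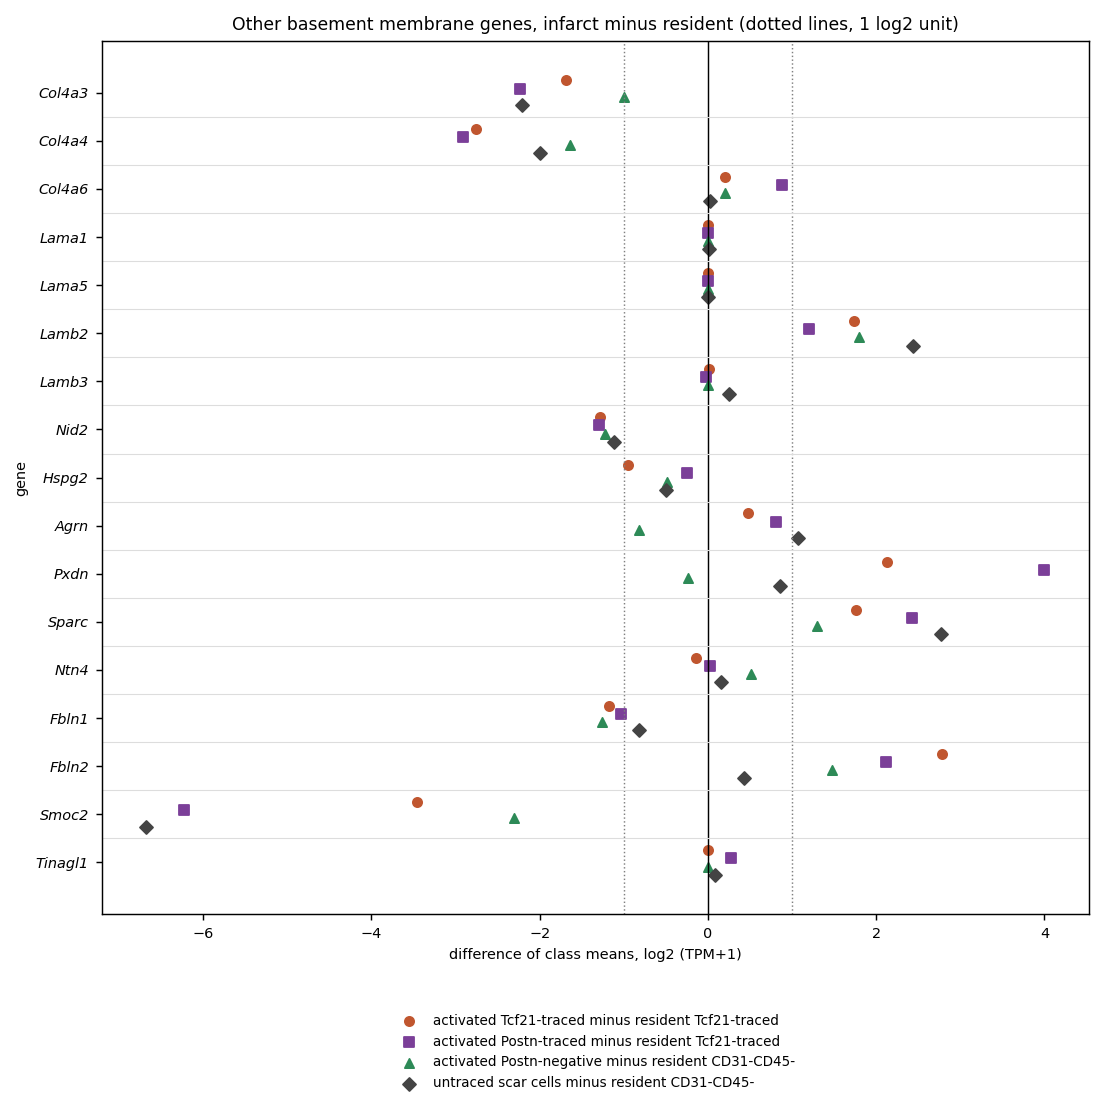
Difference of class means (x axis, log2 (TPM+1) units) for 17 other basement membrane genes (y axis) in the 4 comparisons of infarct with resident cells, with dotted lines at 1 unit. Sparc lay right of 1 in all 4 (for Postn-negative cells not without the myeloid-positive cell) and Smoc2 left of -2 in all 4 (-3.46, -6.23, -2.31 and -6.67).

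Receptors and partners of the basement membrane were followed in a list of 12, all in the table. Itgb1, the integrin β1 chain gene, was above 5 TPM in 161 of 185 cells and Dag1, the dystroglycan gene, in 103, but Itga3 in 0 (which again allows up to 1.62%), Bcam and Itgb4 in 2 each, Itga7 in 4, Itga2 in 6 and Itga6 in 7. In activated minus resident Tcf21-traced cells, Itgb1 (1.64) and Cd151 (1.31) were higher and 0 lower, and in Postn-traced minus resident Tcf21-traced cells Cd151 (1.56) alone was higher. That is 2 and 1 of 12, beside 16.9% and 20% of all genes and 44.1% and 47.3% of widely detected genes. Dag1 was lower in Postn-negative (-1.42), scar (-1.79) and resident Tcf21-traced cells (-1.48) than in resident CD31-CD45- cells, a class with 7 of 12 cells above 5 TPM. Itga6 was called lower in the same 3 comparisons (-1.18, -1.12 and -1.11) with only 2 of the 12 cells behind it. Lower receptors were thus 2, 2 and 3 of 12 (with Cd151 in the resident comparison), beside 5.2%, 6.57% and 6.55% of all genes and 10.3%, 15% and 13.8% of widely detected genes. Without the myeloid-positive cell the same receptors were called in these 3 comparisons, with Dag1 at -1.81, -2.17 and -1.87. Resident Tcf21-traced cells also had Itga1 higher (1.37) and Cd151 lower (-1.39) than resident CD31-CD45- cells. Postn-traced minus Postn-negative cells had Itgb1 (1.11) and Ddr1 (1.15) higher, 2 of 12 beside 16.7% of all genes, and Tcf21-traced minus untraced Postn-positive cells had Itga1 lower (-1.03), 1 of 12 beside 5.05%.

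The genes outside these lists whose level followed the mean of the 10 most closely between cells were Sparcl1 (rho 0.50), Ace (0.47), Lpl (0.47), Abca8a (0.44) and Pam (0.42). Each rho is the average over the 57 and 63 cells of the larger infarct captures, among 1930 genes above 5 TPM in at least 50% of those cells. Sparcl1 averaged 10.95 in resident Tcf21-traced cells, 7.47 in activated Tcf21-traced cells, 6.21 in Postn-traced cells and 5.03 in scar cells. Lpl averaged 9.04, 4.47, 5.20 and 3.55 in the same classes. Activated Postn-negative cells lay closer to the resident class, with Sparcl1 at 8.74 and Lpl at 8.05. Pam was not higher in resident Tcf21-traced cells than in the infarct classes first named (6.27, 7.16, 7.22 and 6.93).

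The 4 Postn-positive resident cells were too few for a comparison. In the 3 that were Tcf21-traced Col4a1 did not pass 5 TPM in any and Nid1 passed in all 3 (5.60, 8.04 and 9.40), and the 1 CD31-CD45- cell held Nid1 at 8.05, Lama2 at 9.10 and Col4a1 at 0.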

How the data were processed

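The deposited table holds log2 (TPM+1) values, computed by the authors with a pseudocount of 1. Its title names FPKM, but the values of a cell, converted back, summed to between 999257 and 1000000, as TPM do. The submitters' processing notes name Bowtie 1.0.0, eXpress 1.5.1 and the build mm10. The 3 table columns that belong to no sample were not used. From the table, class means, SDs, differences and shares of cells above 5 TPM were computed with Python 3.11.15, pandas 2.3.3, NumPy 2.4.6 and SciPy 1.17.1, and figures with Matplotlib 3.10.9. No pairs of cells had identical values. The calculation of calls was tested on simulated data. No test between classes was run. The 10 genes and the other lists were chosen with earlier results of these data known. Named genes are those of these lists that the table holds and, for likeness, the 5 with the highest average rho. The cell type markers called in a comparison are outside that rule and were named after their values were seen. Alternatives were linear means, medians, pseudocounts of 0.1 and 5, centring, other minimums, cells with few genes left out, Postn-positive cells added to a class, Pearson's r and, chosen after the data were seen, cells with markers of other types, the myeloid-positive cell or each single cell left out and Lamb2 counted beside Lamb1. Sequences are from RefSeq (GRCm38.p6), with promoter windows matched for 8 of the 10 genes.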

Additional observations from a re-analysis of the deposited data

How the results depend on the processing

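Of 31 called differences of the 10 genes, 10 stayed over 1 log2 unit in the same direction under every alternative with several cells changed: Col15a1 in both traced classes against resident Tcf21-traced cells and within the Tcf21-traced capture, Lama2 in Postn-traced and scar cells, Lamb1 within the Postn-traced capture and in scar cells, and Nid1 in the Tcf21-traced, Postn-negative and resident comparisons. Of 242 alternative values 193 stayed over 1, and 1 reversed: Lamb1 in Tcf21-traced minus untraced Postn-positive cells was 0.29 on linear means, against -1.09. Of the 31, 21 stayed over 1 whichever 1 cell was left out. The causes of these changes were not tested.

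Linear means gave 1 gene higher for activated minus resident Tcf21-traced cells (3 as reported), 1 for Postn-traced minus resident (2), 1 for Postn-negative minus resident (3), 0 for Postn-traced minus Postn-negative (1), 0 for Tcf21-traced minus untraced Postn-positive (1) and 1 for resident Tcf21-traced minus resident CD31-CD45- (3), and 2 lower (1) for both Postn-negative minus resident and the resident pair. In the resident pair these 2 were Col4a5 (-3.68) and Col18a1 (-1.42), and Lamb1, the gene reported as lower, was at -0.68. Medians gave 1 higher for Postn-traced minus resident, 0 higher and 2 lower (4) for Tcf21-traced minus untraced Postn-positive, and 3 lower for Postn-negative minus resident. Over all genes, medians gave 4.2 to 13.8% higher and 1.83 to 7.01% lower across the comparisons. A pseudocount of 0.1 gave 2 higher and 4 lower (2) for Postn-traced minus Postn-negative and 3 higher (0) for scar cells. Of all 15733 genes, that setting called 4531 higher and 636 lower for Postn-traced minus Postn-negative, and 3214 and 1727 for scar cells. Of the 5039 widely detected genes it called 2796 and 368, and 2024 and 1002. A pseudocount of 5 gave 0 higher for Postn-traced minus resident, Postn-traced minus Postn-negative and Tcf21-traced minus untraced Postn-positive, 1 lower for the last and 0 lower for Postn-negative minus resident. It gave 1.28 to 9.95% of all genes higher and 1.4 to 3.88% lower. Centring gave 0 higher for Tcf21-traced minus untraced Postn-positive, 0 lower for Postn-negative minus resident and 1 lower for Postn-traced minus Postn-negative. With it 2.96 to 23.4% of all genes were higher and 1.68 to 6.75% lower. Untraced Postn-positive cells added to the Postn-negative class gave 2 lower for Postn-negative minus resident and 1 lower for Postn-traced minus Postn-negative. The shares of all genes were then 9.48 to 16.6% higher and 1.8 to 5.11% lower. Cells with markers of other types left out gave 0 higher for Postn-traced minus Postn-negative, 3 lower for Postn-negative minus resident, 1 higher and 2 lower for the resident pair and 5 lower (3) for scar cells. Beside these, 3.83 to 18.2% of all genes were higher and 2.47 to 7.37% lower. Single cells left out gave 0 to 1 higher for Postn-traced minus Postn-negative, Tcf21-traced minus untraced Postn-positive and scar cells, 1 to 4 higher and 1 to 2 lower for the resident pair, 0 to 3 lower for Postn-negative minus resident and 2 to 5 lower for scar cells.

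With any value over 0 counted, Col4a1 with Col4a2 was held by 75% (41.7%) of Postn-negative and 97.7% (84.1%) of activated Tcf21-traced cells, and a laminin set by 79.5% (65.9%) of activated Tcf21-traced and 100% (33.3%) of the 3 resident Tcf21-traced Postn-positive cells. On linear means 22.6 to 33.8% of all genes were called higher and 15.8 to 20.2% lower, and higher genes made up 64.5% of those called for activated minus resident Tcf21-traced cells (86.4% as reported), 64.4% for Postn-traced minus resident (88.8%), 60% for Postn-traced minus Postn-negative (87.7%) and 58.9% for Tcf21-traced minus untraced Postn-positive (39.8%). The median difference of the 10 genes ranged from -0.81 to -0.03, -0.70 to 0.04, -0.42 to 0.21, -0.79 to -0.10, -1.02 to -0.14, -0.23 to 0.56 and -0.96 to 0.23 in the 7 comparisons in the order reported. Classes of 12 to 44 cells, with SDs of up to 4.17 log2 units between cells, limit what a difference of means can show.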
